A study of Mus musculus with 27 samples.

Results

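Mouse embryonic stem cells (ESC) were compared with the epiblast-like cells made from them (EpiSC in the labels), the first step of a differentiation toward gonadal progenitors. The members were the 3 ESC and the 3 EpiSC libraries, chosen by their labels, 6 of the 27 libraries of the series. The question was which programs the cells lost and gained on leaving the embryonic stem cell state. RNA was sequenced in bulk, in paired reads of 75 bases, and the values are RSEM's expected counts for each gene.

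All cells came from clone 7 of one XY line from an F1 cross of C57BL/6 and CBA mice, so the replicates are not separate lines. This clone carries Tesco-CFP, a fluorescent reporter driven by a Sertoli cell enhancer, and R26-rtTA, a doxycycline-dependent activator expressed from the *Rosa26* locus, and both groups share these alleles. The EpiSC libraries came from cells first passaged in 20% knockout serum replacement (KSR) with 1000 U/ml of leukaemia inhibitory factor (LIF), then kept for 60 h in vitamin A-free N2B27 to which 1% KSR, 12 ng/ml of bFGF (a basic fibroblast growth factor) and 20 ng/ml of activin A were added. ESC were kept in LIF with 2 inhibitors, PD0325901 and CHIR99021 (a Wnt agonist), and passaged in the KSR medium with LIF before differentiation. The ESC libraries carry no statement of which of these 2 media the cells were taken from, so medium and stage cannot be told apart. For some genes the level in M is given as well, the next stage of the series, a further 36 h with LY294002 (10 µM), an inhibitor of phosphatidylinositol 3-kinase, 10 ng/ml of BMP4 (a bone morphogenetic protein) and 20 ng/ml of bFGF. The labels do not say that the 3 libraries of a group were separate cultures. The paper calls them biological replicates and does not say how they were kept apart. The p-values rest on the spread between replicate libraries, estimated in a model of all groups of the series, and not on separate lines.

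Mouse embryonic stem cells in LIF resemble the epiblast of the embryo before implantation, a state called naive pluripotency that is held by factors such as *Klf4*, *Esrrb* and *Tfcp2l1*. In activin A and bFGF they pass to a state that resembles the epiblast after implantation, which is marked by *Fgf5* and *Otx2*, methylates its DNA and can respond to signals for the primitive streak and the germline. *Pou5f1* is used in both states.

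The libraries summed to 35923040 to 63425774 expected counts in ESC and 61504816 to 69551156 in EpiSC. They also differed in ways that move with the group. The trend of counts with GC content was -0.245 to -0.133 in ESC and -0.0583 to 0.0836 in EpiSC, as the median log2 deviation of genes of high GC content minus that of genes of low GC content. Summed CPM, counts scaled to a common library total, of 6 red blood cell markers were 3.89 to 27.1 in ESC and 0.585 to 0.869 in EpiSC, and the defining globin genes *Hbb-bs*, *Hbb-bt* and *Hba-a2* were at 0 in every EpiSC library. Summed CPM of 12 fibroblast markers were 132 to 145 in ESC and 246 to 263 in EpiSC. The 12 include *Acta2*, a smooth muscle actin gene whose large rise is given below, so the sum does not measure fibroblasts alone. Each of these 3 measures had a two-sided exact permutation p of 0.1, the smallest that 3 libraries against 3 can give (0.125 after Benjamini-Hochberg adjustment over 5 measures). Results were therefore also recomputed with an offset for GC content.

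The cells matched their labels in all 4 markers. *Klf4* (chr4:55527143-55532466 on GRCm38) had 4632, 4762 and 5127 normalized reads in the ESC libraries and 163, 152 and 169 in the EpiSC libraries. *Esrrb* (chr12:86361117-86521628) had 21410, 22820 and 22770 in ESC and 3991, 3828 and 3591 in EpiSC. Both naive factors were lower in every EpiSC library. *Fgf5* (chr5:98254184-98277030) had 215, 288 and 291 in ESC and 10040, 10050 and 10280 in EpiSC. *Otx2* (chr14:48657677-48673819) had 726, 745 and 731 in ESC and 6761, 6788 and 6563 in EpiSC. Both post-implantation markers were higher in every EpiSC library, and neither pair of groups overlapped. Normalized reads are counts after TMM scaling to a library of mean size, and gene length is not corrected for. In bulk RNA, fewer cells of a type and less RNA per cell cannot be told apart.

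Of 20839 genes tested, 1682 (8.07%) were differentially expressed (DE), with 781 (3.75%) higher and 901 (4.32%) lower in EpiSC. The call required 3 things: an adjusted p no higher than 0.01 from edgeR's quasi-likelihood test (with Benjamini-Hochberg adjustment over all genes tested), a change of 2-fold or more, and 100 or more normalized reads on average, both over the 27 libraries and in ESC or EpiSC. The changes were many and mostly small. On the p threshold alone 10325 genes (49.5%) passed, with 23.9% of all genes higher and 25.6% lower. By at least 4-fold 211 DE genes rose and 236 fell, and by at least 16-fold 35 rose and 20 fell. In all 1682 DE genes the ESC and EpiSC libraries did not overlap, and libraries did not overlap in 66.1% of all genes tested. The median log2 fold change of all genes was -0.003. Another 2144 genes passed on p and fold but were under the minimum of normalized reads, 1236 of them lower and 908 higher in EpiSC.

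**Figure D1:**
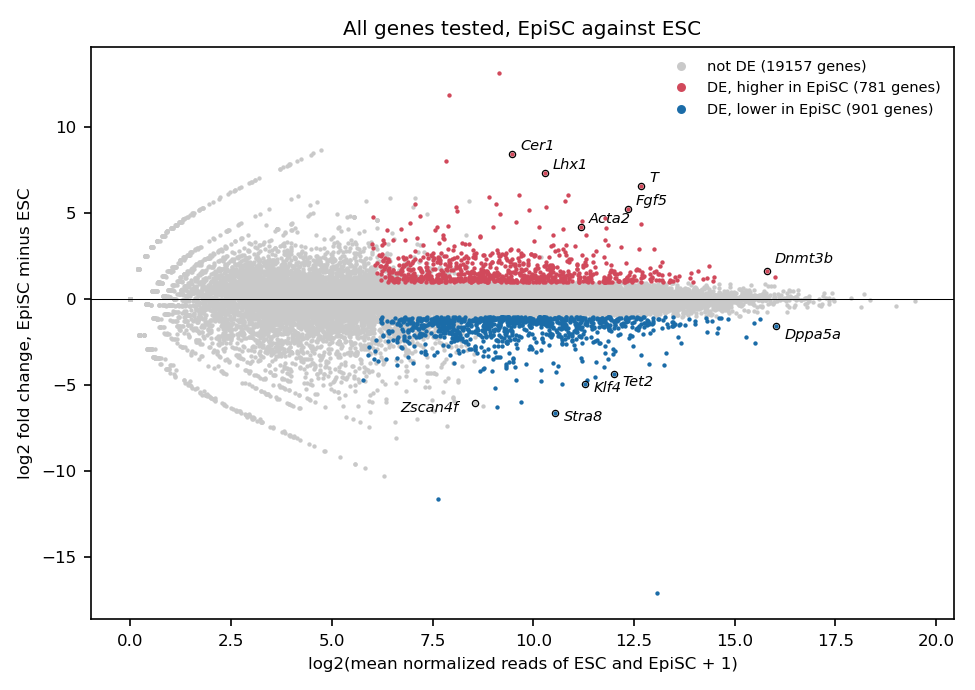
Log2 fold change of EpiSC against ESC (vertical axis) by log2 of the mean normalized reads of both groups plus 1 (horizontal axis), 1 point per gene, for 20839 genes. Red points are the 781 DE genes higher in EpiSC and blue points the 901 lower, and large changes such as those of Cer1 and Stra8 lie among genes of middle abundance.

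Genes were then read by function, in 29 lists of 477 distinct genes, some of which are on several lists. The lists are described by how many members were DE in each direction, against 3.75% higher and 4.32% lower among all genes, and by the median log2 fold change. Primitive streak genes had the highest median (4.13), followed by formative and primed epiblast genes (1.55), the Wnt pathway (1.13) and cholesterol synthesis and uptake (1.13). Among lists without globins, 2-cell-like genes (-4.61), naive factors (-2.54) and trophoblast markers (-2.27) had the lowest medians. Where a list is said to hold no DE gene in a direction, DESeq2's Wald test called none in it either. At an unadjusted edgeR p under 0.05 the genes in such a direction numbered 4 for the core factors, 1 for neural genes, 2 for germline genes, 5 for basement membrane genes, 2 for fibroblast markers and 3 for contractile genes, and 0 for formative genes, trophoblast markers and cholesterol genes.

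**Figure D2:**
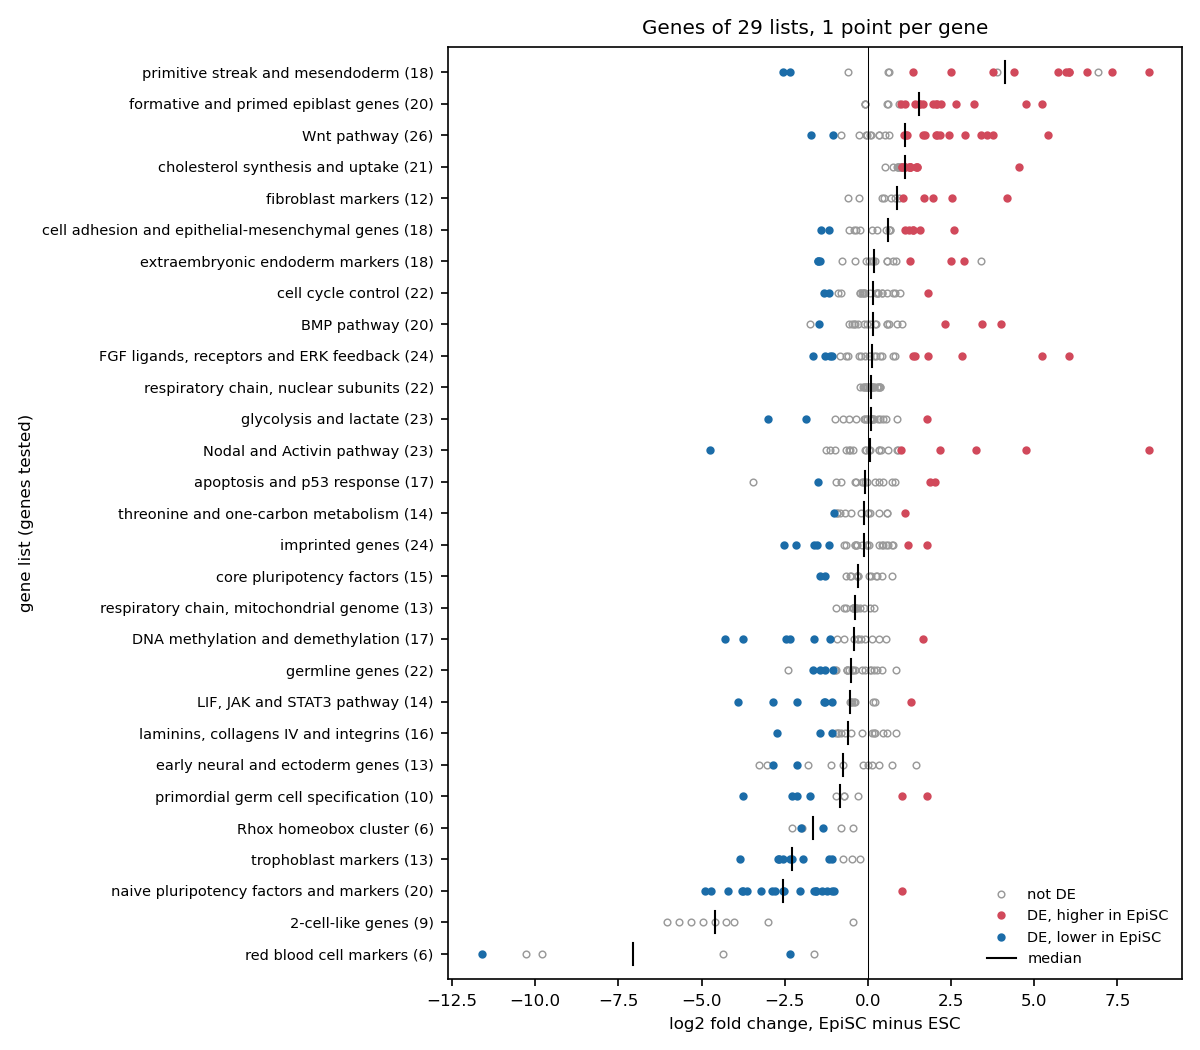
Log2 fold change of EpiSC against ESC (horizontal axis) for the genes of 29 lists (vertical axis, with the genes tested in parentheses), ordered by median (black bar). Filled points are DE genes, red higher and blue lower in EpiSC, and open points are not DE; 19 of 20 naive genes lie left of 0 as DE genes, and all 21 cholesterol genes lie right of it.

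Naive factors fell almost without exception. Of 20 naive factors and markers, 19 were DE and lower in EpiSC and 1 was DE and higher. The deepest falls after *Klf4* (log2 fold change -4.90) were those of transcription factors. *Tbx3* had 4871, 4776 and 5375 normalized reads in ESC and 175, 190 and 209 in EpiSC. *Nr0b1* had 2628, 2850 and 3079 in ESC and 129, 161 and 167 in EpiSC. *Tfcp2l1* had 14370, 13600 and 14210 in ESC and 1046, 971 and 1059 in EpiSC. Their groups did not overlap, which holds for every DE gene. The log2 fold changes of the 3 were -4.71 (standard error 0.088, adjusted p 1.39e-23), -4.22 (0.15, 1.77e-18) and -3.78 (0.10, 1.1e-20).

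Other naive genes kept a larger share of their level. *Prdm14*, which restrains FGF signalling and DNA methylation in embryonic stem cells, changed by -3.74 (standard error 0.21), *Esrrb* by -2.55 (0.079) and *Nr5a2* by -2.52 (0.12). *Klf5* changed by -2.03, *Zfp42* by -1.38, *Nanog* by -1.23 and *Klf2* by -1.07, all DE, though *Klf2* was just under the fold minimum without EpiSC replicate 1 (-1.0). The mean TPM, the deposited level per length, of *Dppa5a* was the highest of these in both groups, 6060 ± 285 in ESC and 1960 ± 19.5 in EpiSC (SD, n = 3). *Dppa3* was the member that rose, with 1663, 1892 and 1663 normalized reads in ESC and 3425, 3523 and 3667 in EpiSC, and a change of 1.02 on the log2 scale (standard error 0.12, adjusted p 4.79e-08). It has processed copies elsewhere in the genome, so its count is uncertain. It was under the fold minimum with DESeq2's Wald test or size factors (each 0.99), without ESC replicate 1 (1.0) and without ESC replicate 3 (0.99).

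The core factors shared by both states moved less. Of 15, none was DE and higher and 2 were DE and lower, with a median of -0.29, and 10 more passed the p threshold below the fold minimum. *Sox2* had 15730, 16990 and 18480 normalized reads in ESC and 6102, 6328 and 6483 in EpiSC (log2 fold change -1.44, standard error 0.075). *Dppa2*, a regulator of early zygotic genes, changed by -1.28 (0.079). *Utf1* was at 14740 ± 1950 in ESC and 24190 ± 1580 in EpiSC (SD, n = 3), and *Lin28a* at 19060 ± 496 and 25480 ± 536, log2 fold changes of 0.71 and 0.42 that passed on p and not on fold.

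The receptor genes of LIF and some of its targets fell. Of 14 genes of the LIF, JAK and STAT3 pathway, 6 were DE and lower and 1 was DE and higher, with a median of -0.53. *Lifr*, the LIF receptor, had 2272, 2123 and 2219 normalized reads in ESC and 939, 797 and 939 in EpiSC (log2 fold change -1.3). Its signalling partner *Il6st* changed by -1.08 and the transducer *Stat3* by -1.33. The targets did not move as one. *Socs3*, the feedback inhibitor, had 3008, 3248 and 3506 in ESC and 725, 768 and 745 in EpiSC (log2 fold change -2.13, standard error 0.10, adjusted p 9.58e-16). *Bcl3* changed by -3.90 and *Gbx2* by -2.84, the count of the latter being uncertain because 43.5% of its exon length is shared with an antisense gene. *Pim1* and *Pim3* were lower by 0.40 and 0.52, below the fold minimum. *Junb* rose (1.29), and was under the fold minimum with an offset for GC content (0.87).

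**Figure D3:**
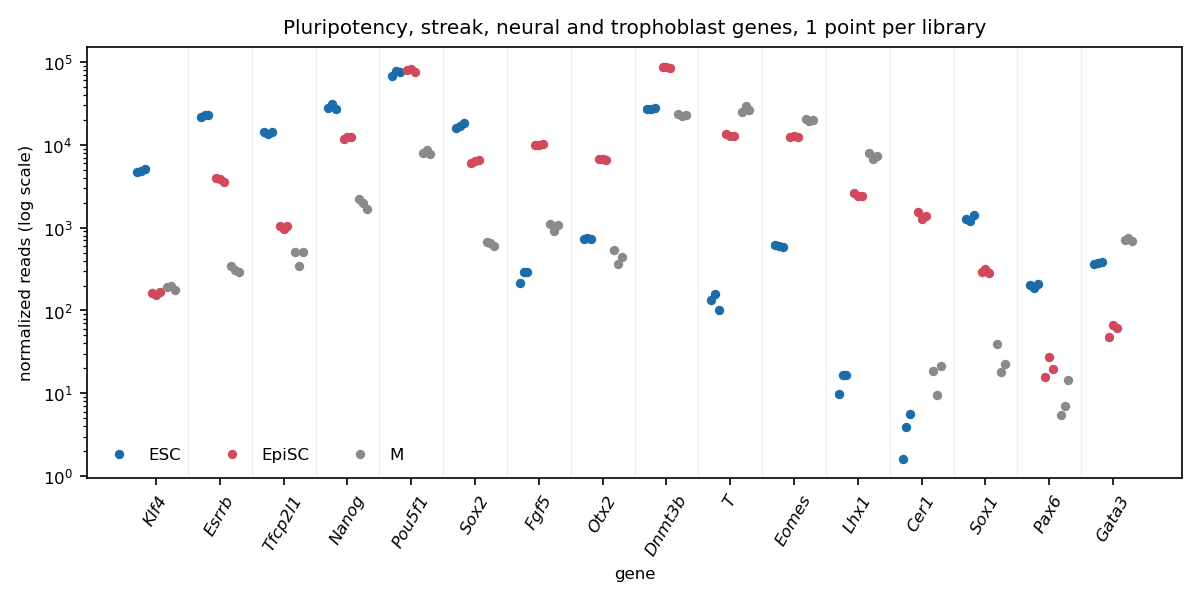
Normalized reads on a log scale (vertical axis) of 16 genes (horizontal axis) in the 3 ESC (blue), 3 EpiSC (red) and 3 M libraries (grey), 1 point per library. ESC and EpiSC points overlap in Pou5f1 and are apart in the other 15 genes; T and Eomes are higher in M than in EpiSC, and Cer1 and Fgf5 are lower.

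The genes of the post-implantation epiblast rose. Of 20 formative and primed genes, 14 were DE and higher and none was DE and lower. *Fgf5* rose by 5.24 on the log2 scale (standard error 0.15, adjusted p 4.74e-20), 37.7-fold, and *Otx2*, the homeobox factor that redirects *Pou5f1* to new enhancers, by 3.19 (0.16, 1.74e-15), 9.13-fold. *Fst*, which encodes follistatin, a protein that binds activin, had 216, 280 and 247 normalized reads in ESC and 6810, 6575 and 6813 in EpiSC, a change of 4.75 on the log2 scale (standard error 0.13, adjusted p 1.33e-20). *Pou3f1* (2.19), *Sox3* (2.07), *Hes6* (2.06), *Zic2* (1.56) and *Foxd3* (1.43) rose as well, the last of them being under the fold minimum with an offset for GC content (0.79). *Sox4* rose by 1.55, but its count is uncertain, since 54.6% of its exon length is shared with an antisense gene. *Lin28b*, *Grhl2* and *Zic5* passed on p below the fold minimum (0.92, 0.60 and 0.58). *Nes*, an intermediate filament gene often read as a neural progenitor marker, rose by 1.95.

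Genes of the FGF pathway moved in both directions. Of 24 genes, 6 were DE and higher and 4 DE and lower, with a median of 0.12. *Fgf8*, a ligand of the primitive streak, had 55.3, 52.7 and 59.5 normalized reads in ESC and 3501, 3849 and 3708 in EpiSC, a change of 6.04 on the log2 scale (standard error 0.16, adjusted p 8.53e-21). *Fgf4*, the ligand that embryonic stem cells make, had 9158, 9912 and 9423 in ESC and 2849, 3031 and 3109 in EpiSC, a log2 fold change of -1.66 (0.083, 2.72e-15). The ligand output per length was 84.5 TPM of *Fgf4* against 3.34 of *Fgf5* and 2.25 of *Fgf8* in ESC, and 25.9, 119 and 109 TPM in EpiSC. *Fgf4* was thus the highest of the 3 in ESC and the lowest in EpiSC.

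Among the receptors, *Fgfr1* was at 71.4 ± 6.41 TPM in ESC and 76.2 ± 3.41 in EpiSC (SD, n = 3), the highest of the 4 in both groups. *Fgfr2* fell from 30.2 ± 0.635 to 11.4 ± 0.534 TPM (log2 fold change of the counts -1.15, standard error 0.083), and *Fgfr4*, at 0.83 and 0.34 TPM, fell by 1.3 on the log2 scale. *Fgfr4* was under the minimum of reads with an offset for effective gene length (-1.29) and without ESC replicate 2 (-1.14) or 3 (-1.23), and without ESC replicate 2 the list held 2 DE and lower genes. The phosphatases that ERK signalling induces against itself rose. *Dusp4* had 299, 414 and 369 normalized reads in ESC and 2551, 2693 and 2577 in EpiSC (log2 fold change 2.83, standard error 0.12), and *Dusp6* 3369, 3338 and 3483 in ESC and 11600, 12210 and 11810 in EpiSC (1.81, 0.083). *Il17rd*, which dampens FGF receptors, rose by 1.36. *Spry2*, another inhibitor, was lower by 0.66 on the log2 scale below the fold minimum, so the feedback genes did not all move one way. The ligand *Fgf17* (-0.08) and the feedback genes *Spry4* (0.04) and *Spred1* (0.06) did not pass on p. Whether the inhibitors of the ESC medium had a part was not tested, and medium and stage cannot be told apart.

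In the Nodal and activin pathway, 5 of 23 genes were DE and higher and 1 was DE and lower, with a median of 0.07. *Cer1*, a secreted inhibitor of Nodal, BMP and Wnt made by anterior endoderm, had 1.63, 3.9 and 5.62 normalized reads in ESC and 1555, 1281 and 1399 in EpiSC. With 10 counts in all 3 ESC libraries, the ratio of EpiSC to ESC was 363 (95% counting interval 197 to 757). In M its mean was 16.6 ± 6.3 (SD, n = 3). *Cfc1*, a Nodal co-receptor that shares 27.8% of its exon length with an antisense gene, rose by 3.24 and *Foxh1*, the DNA-binding partner of SMAD2 and SMAD3, by 1.01, to 7501 ± 475 in EpiSC. *Foxh1* was under the fold minimum with DESeq2's Wald test or size factors (each 0.97) and with an offset for GC content (0.78). The same held without ESC replicate 1 (0.96) and without EpiSC replicate 2 (0.97). *Nodal* itself had 7018, 7823 and 7553 in ESC and 11280, 11610 and 11130 in EpiSC, higher by 0.60 below the fold minimum. The 2 Lefty inhibitors, which Nodal induces, went the other way: *Lefty1* had 24590, 26500 and 28810 in ESC and 13280, 14300 and 12820 in EpiSC (log2 fold change -0.98, below the fold minimum), and *Lefty2* changed by -0.53. *Lefty1* was DE with DESeq2's Wald test or size factors (each -1.02) and with an offset for GC content (-1.29). It was also DE without ESC replicate 1 (-1.03) and without EpiSC replicate 2 (-1.02). *Inhbb*, which encodes a subunit of activin B, had 2179, 2202 and 2327 in ESC and 75.7, 92.3 and 82.4 in EpiSC, a change of -4.75 on the log2 scale (standard error 0.13, adjusted p 2.6e-20). *Gdf1* was called higher (2.16), but all its exon length is shared with *Cers1* on the same strand.

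In the BMP pathway, 3 of 20 genes were DE and higher and 1 was DE and lower. The 3 were a ligand and 2 antagonists. *Bmp2* had 16.3, 20.5 and 27 normalized reads in ESC and 372, 339 and 346 in EpiSC (log2 fold change 4.01, standard error 0.13, adjusted p 7.24e-19). *Nog*, which encodes noggin, had 17.9, 19.5 and 19 in ESC and 184, 209 and 226 in EpiSC (3.44, 0.19, 3.93e-14), and *Chrd*, which encodes chordin, 303, 310 and 332 in ESC and 1745, 1453 and 1501 in EpiSC (2.31, 0.096, 5.9e-17). None of the 3 overlapped between groups, which holds for every DE gene. *Id2*, a target of BMP, fell by 1.47 on the log2 scale, while its relative *Id3* was higher by 0.62 below the fold minimum.

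The Wnt pathway had the most DE genes of any signalling list, with 14 of 26 higher and 2 lower. Ligands, receptors and targets were all among those that rose. *Wnt3*, the ligand needed for the primitive streak, had 176, 205 and 204 normalized reads in ESC and 2674, 2686 and 2674 in EpiSC (log2 fold change 3.77, standard error 0.12, adjusted p 1.83e-19). *Wnt11* rose by 3.57, *Wnt5b* by 3.4 and *Wnt8a* by 1.16, and the receptor *Fzd2* by 2.44. *Fzd5*, another receptor, fell by 1.05 on the log2 scale and was under the fold minimum with an offset for effective gene length (-0.95) or without ESC replicate 3 (-0.98).

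Genes used as direct readouts of β-catenin rose with them. *Sp5* had 42.3, 68.3 and 59.5 normalized reads in ESC and 2282, 2541 and 2619 in EpiSC (log2 fold change 5.40, standard error 0.14, adjusted p 7.96e-21). *Lef1* had 381, 380 and 434 in ESC and 3214, 2981 and 2902 in EpiSC (2.93, 0.096, 4.97e-19), and *Axin2* 1011, 992 and 1110 in ESC and 4716, 4943 and 4495 in EpiSC (2.18, 0.062, 2.63e-20). All 3 were higher in every EpiSC library, as were all DE genes that rose. The inhibitors were split. *Dkk1* (1.71) and *Sfrp2* (1.17) rose, *Notum* fell by 1.72, and *Frzb*, which is not on the list, rose from 14 counts in all 3 ESC libraries, with a ratio of EpiSC to ESC of 47.4 (95% counting interval 28.1 to 87.1). *Notum* shares 38.1% of its exon length with an antisense gene, so its count is uncertain. CHIR99021, a Wnt agonist, was in one of the possible ESC media, so medium and stage cannot be told apart here.

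The promoters of 18 of the 26 Wnt genes were in the RefSeq table of mouse promoters (GRCm38.p6, 250 bases before to 50 after the start of each gene). The letters CTTTGAT, which TCF and LEF factors bind, were found on either strand in 3 of them, against 3.2% of 13644 tested genes with a promoter. All 3 genes rose. They are shown because a match can be read beside its gene's value. The matched letters are in capitals, in their reverse complement where the match is on the other strand. The windows are chr2:70474803-70474841 on the plus strand for *Sp5*, chr6:119449435-119449473 on the minus strand for *Wnt5b* and chr7:98835045-98835083 on the plus strand for *Wnt11*.
Sp5: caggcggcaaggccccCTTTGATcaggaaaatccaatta
Wnt5b: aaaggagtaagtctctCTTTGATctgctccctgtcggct
Wnt11: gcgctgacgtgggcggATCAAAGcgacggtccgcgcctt
The match lies 104 to 98 bases before the start in *Sp5*, 71 to 65 in *Wnt5b* and 51 to 45 in *Wnt11*. The RefSeq start used for *Wnt5b* lies inside the gene as annotated in GENCODE (chr6:119432531-119544347), not at its outer start. A match is a description of the sequence and not evidence that a factor binds there. Motifs were searched in other lists too, and not each was found. The STAT site, TTCCNGGAA, was in 0 of the 14 LIF, JAK and STAT3 promoters, against 1.52% of all.

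Primitive streak and mesendoderm genes had the highest median of the 29 lists. Of 18, 11 were DE and higher and 2 DE and lower. *T*, the Brachyury factor of the streak, had 135, 159 and 102 normalized reads in ESC and 13540, 12710 and 12570 in EpiSC, 97.3-fold higher. *Lhx1* had 9.76, 16.6 and 16.8 in ESC and 2598, 2380 and 2431 in EpiSC (log2 fold change 7.35, standard error 0.26, adjusted p 1.81e-18). *Mixl1* had 71.6, 73.2 and 56.2 in ESC and 3545, 3347 and 3517 in EpiSC (5.70, 0.098, 5.55e-24). *Evx1* (6.04) and *Eomes* (4.39) rose too. Genes of the anterior streak and of endoderm were among them: *Gsc* had 8.14, 19.5 and 14.6 in ESC and 948, 868 and 988 in EpiSC (5.96, 0.22, 3.79e-18), and *Foxa2* 436, 401 and 386 in ESC and 2485, 2108 and 2243 in EpiSC (2.49, 0.092, 5.82e-18).

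Genes of later mesoderm were at low levels in EpiSC. *Mesp1* was at 6.27 ± 1.67 normalized reads in ESC and 93.9 ± 12.1 in EpiSC (SD, n = 3). *Msgn1* was at 0 in the ESC libraries and 15.2 ± 2.28 in EpiSC, and *Tbx6* was at 39.9 ± 3.58 in ESC and 60.1 ± 7.51 in EpiSC. In M their means were 3606, 892 and 1710. *Mesp1* (log2 fold change 3.87) and *Msgn1* (6.93) passed on p and fold and were under the minimum of reads. *Hand1* fell by 2.33 and *Cdx1* by 2.54 on the log2 scale. In M, *Gsc* was at 156 ± 34.4 and *Foxa2* at 277 ± 26.1 (SD, n = 3), below their EpiSC level.

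None of the early neural and ectoderm genes on the list was called higher. Of 13 early neural and ectoderm genes tested, 2 were DE and lower, and 3 more passed on p and were lower. *Sox1*, the first marker of neural ectoderm, had 1273, 1210 and 1438 normalized reads in ESC and 290, 316 and 285 in EpiSC (log2 fold change -2.14, standard error 0.19, adjusted p 4.46e-10). *Pax6* had 203, 188 and 211 in ESC and 15.8, 27.5 and 19.7 in EpiSC. It changed by -3.26 and was under the minimum of reads over the 27 libraries.

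Markers of extraembryonic endoderm were mixed, with 3 of 18 DE and higher and 3 DE and lower, and a median of 0.18. *Sox17* had 58.6, 62.5 and 60.6 normalized reads in ESC and 440, 462 and 452 in EpiSC (log2 fold change 2.89, standard error 0.17), and *Gata6* 171, 170 and 175 in ESC and 408, 402 and 426 in EpiSC (1.26, 0.088). Both factors also mark definitive endoderm. *Sox7*, a marker of primitive and parietal endoderm, and *Hnf4a*, one of visceral endoderm, each fell by 1.51 on the log2 scale, and the basement membrane gene *Lama1* by 1.45.

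Trophoblast markers fell. Of 13 tested, 9 were DE and lower and none was higher. *Gata3* had 361, 379 and 382 normalized reads in ESC and 48.4, 67.7 and 61 in EpiSC (log2 fold change -2.67, standard error 0.11, adjusted p 2.83e-17). *Tfap2c*, which also acts in naive and germ cells, had 8484, 9093 and 9026 in ESC and 1920, 1746 and 1859 in EpiSC (-2.27, 0.079, 1.56e-18). *Plac1* had 1229, 1253 and 1104 in ESC and 82.7, 78.5 and 85 in EpiSC (-3.86). Their groups did not overlap, which holds for every DE gene. Summed CPM of the list were 873 to 898 in ESC and 514 to 540 in EpiSC, and the keratin genes *Krt8* and *Krt18*, which are on it, changed by -0.23 and -0.47.

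Genes of the 2-cell-like state, which a few embryonic stem cells enter at any time, were lower in EpiSC. All 9 tested passed on p and were lower, with a median log2 fold change of -4.61. At an unadjusted edgeR p under 0.05 the same number of 9 was lower. None was called DE by edgeR or by DESeq2's Wald test, because they are under 100 normalized reads over the 27 libraries or, for *Eif1a*, under the fold minimum. With the minimum taken over the 6 libraries compared, 3 were DE and lower, and with none, 8 were. *Zscan4f* had 713, 779 and 730 normalized reads in ESC and 10.6, 3.93 and 18 in EpiSC. *Zscan4c* had 527, 494 and 487 in ESC and 0.88, 16.7 and 12 in EpiSC, and *Zscan4d* 244, 219 and 201 in ESC and 3.52, 6.87 and 6.01 in EpiSC. These genes are near-identical copies, among which RSEM divides reads by a model.

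The germline genes that were DE were all lower. Of 22, 4 were DE and lower and none was DE and higher, against 4.32% lower and 3.75% higher among all genes. Another 5 passed on p and were lower. Among these 4, *Rpl10l* changed by -1.45, *Sycp1*, a part of the synaptonemal complex, by -1.28 and *Piwil2*, which guards against transposons, by -1.06. *Dazl* changed by -0.98, below the fold minimum. It was DE with DESeq2's Wald test or size factors and without ESC replicate 2 (each -1.02), and without EpiSC replicate 3 (-1.03). Of 10 genes of primordial germ cell specification, 4 were DE and lower and 2 DE and higher. *Kit* fell by 1.74 and *Alpl*, tissue-nonspecific alkaline phosphatase, by 2.14 on the log2 scale. *Dnd1*, an RNA-binding protein of germ cells, had 325, 392 and 392 in ESC and 1333, 1279 and 1232 in EpiSC (1.79, standard error 0.11). *Dppa3* was the other that rose. Of 6 *Rhox* homeobox genes tested, 2 were DE and lower, *Rhox6* (-2.00) and *Rhox9* (-1.35).

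The balance of DNA methylation enzymes shifted toward *Dnmt3b*. Of 17 genes, 1 was DE and higher and 6 were DE and lower. *Dnmt3b* (chr2:153649450-153687730), a de novo methyltransferase, had 26880, 27250 and 27540 normalized reads in ESC and 86230, 87590 and 84400 in EpiSC (log2 fold change 1.66, standard error 0.062, adjusted p 6.88e-18). Its level per length rose from 175 ± 7.59 to 534 ± 8.61 TPM (SD, n = 3). *Dnmt3a* was at 195 ± 9.98 TPM in ESC and 172 ± 9.39 in EpiSC, above *Dnmt3b* in ESC and below it in EpiSC. The catalytically inactive partner *Dnmt3l* had 18580, 20370 and 19150 normalized reads in ESC and 10210, 10280 and 9918 in EpiSC, lower by 0.93 below the fold minimum.

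The TET genes, whose products oxidise methylcytosine, did not move as one. *Tet2* (chr3:133463679-133545139) had 8382, 7353 and 7828 normalized reads in ESC and 412, 356 and 413 in EpiSC, a change of -4.31 on the log2 scale (standard error 0.11, adjusted p 2.04e-21) and 19.9-fold lower. *Tet1* had 40250, 38810 and 41050 in ESC and 18380, 17750 and 18270 in EpiSC (-1.14, 0.09, 3.09e-11). *Tet3* had 1455, 1314 and 1476 in ESC and 2136, 2007 and 1977 in EpiSC, higher by 0.53 below the fold minimum. Per length, *Tet1* stayed the most abundant of the 3, at 82.7 ± 5.56 TPM in ESC and 35.9 ± 1.28 in EpiSC. The other genes that fell were *Prdm14*, *Zfp57*, *Gadd45a* (-2.46) and *Apobec1* (-2.33). The maintenance genes *Dnmt1* and *Uhrf1* were lower by 0.30 and 0.22, far below the fold minimum.

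**Figure D4:**
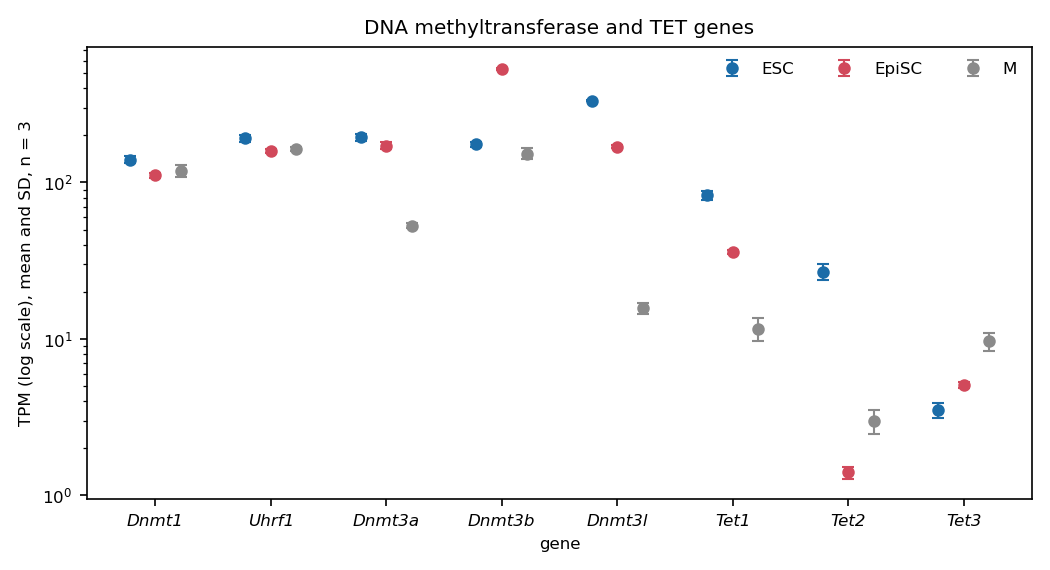
TPM on a log scale (vertical axis, mean with SD of 3 libraries) of 8 DNA methyltransferase and TET genes (horizontal axis) in ESC (blue), EpiSC (red) and M (grey). Dnmt3b is highest in EpiSC at 534 TPM, and Tet2 lies at 26.9 TPM in ESC and 1.4 in EpiSC.

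Genes that respond to retinoic acid were among the deepest falls. A list of 23 genes of retinoid response and handling was drawn up after *Stra8* and *Halr1* had been seen among the largest falls, so its counts are no independent evidence: 10 were DE and lower and 1 was DE and higher. *Stra8* (chr6:34920163-34939344), named for its stimulation by retinoic acid, had 2830, 3101 and 2919 normalized reads in ESC and 29.9, 29.4 and 31.8 in EpiSC, 96.6-fold lower (log2 fold change -6.59, standard error 0.18, adjusted p 1.69e-20). *Halr1*, a noncoding RNA of the *Hoxa* cluster, had 920, 1160 and 1162 in ESC and 15, 7.85 and 18 in EpiSC (-6.28, 0.26, 7.22e-17). No EpiSC library overlapped the ESC libraries in either gene, which holds for every DE gene. *Halr1* was under the minimum of reads without any 1 of the 3 ESC libraries (-6.38 to -6.22).

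The receptor gene *Rarb* had 124, 124 and 112 normalized reads in ESC and 7.92, 12.8 and 12 in EpiSC (log2 fold change -3.45, standard error 0.40, adjusted p 4.16e-08), and 34.1% of its exon length is shared with *Top2b* on the other strand. *Hoxb2* (-3.33), *Meis2* (-2.96), *Stra6*, a retinol transporter (-2.89), *Meis1* (-2.59) and *Hoxb1* (-2.08) fell as well, of which *Hoxb2* shares 27.3% of its exon length with an antisense gene. *Cyp26a1*, the enzyme that clears retinoic acid, went the other way, with 200, 283 and 213 in ESC and 1310, 1055 and 1194 in EpiSC (2.33, 0.17, 6.78e-12). The receptor gene *Rara* was lower by 0.76, and of the genes that make retinoic acid *Aldh1a2* was lower by 0.57 and *Rdh10* higher by 0.73, all below the fold minimum. The medium of the EpiSC stage lacked vitamin A, and medium and stage cannot be told apart.

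A direct repeat spaced by 5 bases, to which retinoic acid receptors bind, was searched on both strands as GTTCA or GGTCA, then NNNNNN, then GTTCA or GGTCA again. It was found in the promoters of 2 of the 16 list genes in the RefSeq table (GRCm38.p6), and in 0.213% of the 13644 promoters. The list was drawn up after values had been seen, so these shares are no independent evidence. A match is not evidence that a receptor binds there. These 2 are shown because they carry the same repeat and their genes moved in opposite directions. The repeat is in capitals. The window of *Rarb* is chr14:16575497-16575544 on the minus strand, with the repeat 52 to 37 bases before the start. That of *Cyp26a1* is chr19:37697760-37697807 on the plus strand, with the repeat in its reverse complement 32 to 17 bases before the start.
Rarb: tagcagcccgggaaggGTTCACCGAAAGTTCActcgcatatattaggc
Cyp26a1: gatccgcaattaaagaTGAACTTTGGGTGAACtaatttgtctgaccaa

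The genes of cholesterol synthesis and uptake rose as a block. Of 21, 13 were DE and higher, none was lower, and all 21 passed the p threshold with a positive log2 fold change. The pathway was covered from an early step, *Hmgcs1* (1.28), to its last, *Dhcr7* (1.13). *Hmgcs1* had 13400, 13520 and 13440 normalized reads in ESC and 33150, 32150 and 32840 in EpiSC (standard error 0.043, adjusted p 8.65e-19). *Lss*, which closes the sterol rings, had 4733, 4670 and 4427 in ESC and 13400, 12760 and 12500 in EpiSC (1.48, 0.039, 5.73e-21). *Cyp51* had 5307, 5685 and 5784 in ESC and 15780, 15180 and 15710 in EpiSC (1.48, 0.041, 1.69e-20). The groups were apart by many times their spread in each of these.

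*Srebf2*, the factor that controls the pathway, was higher by 0.51, below the fold minimum. *Fdps* was among the genes with the largest gain in level per length, from 216 to 504 TPM, and shares 26.7% of its exon length with another gene on its strand. The sterol regulatory element, in the letters TCACNCCAC on either strand, was found in 1 of the 13 promoters of the list in the table, that of *Hmgcs1*, against 1.44% of all. It is shown as the example of the list, with the element in capitals, 137 to 129 bases before the start in chr13:119690198-119690238 on the plus strand (RefSeq, GRCm38.p6).
Hmgcs1: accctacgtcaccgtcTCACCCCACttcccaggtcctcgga
In the other 12 these letters are not in the window, which says nothing of the factor.

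**Figure D5:**
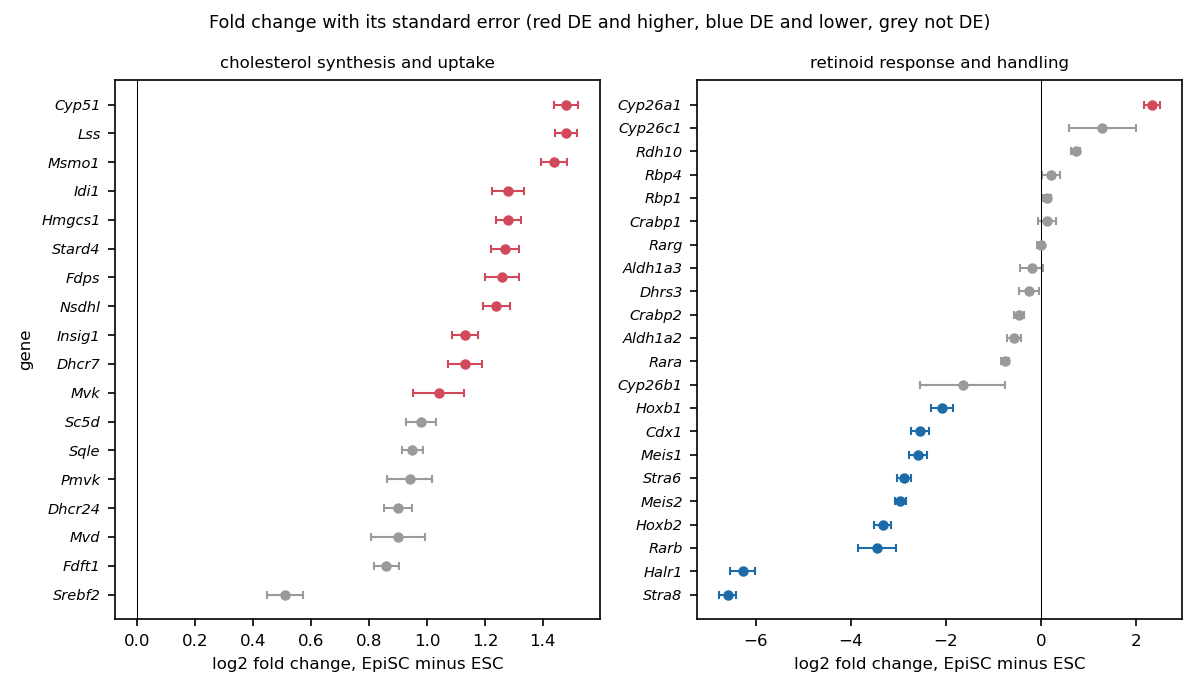
Log2 fold change of EpiSC against ESC with its standard error (horizontal axis) for 18 genes of cholesterol synthesis and uptake (left) and 22 genes of retinoid response and handling (right), 1 gene per line. All cholesterol genes drawn lie above 0, with Hmgcs1 at 1.28, and the retinoid genes run from Stra8 at -6.59 to Cyp26a1 at 2.33.

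Few genes of energy metabolism were DE. Of 23 genes of glycolysis and lactate, 1 was DE and higher and 2 DE and lower, with a median of 0.08. Among all genes tested 3.75% were DE and higher and 4.32% DE and lower, so these counts were near those shares. *Slc16a3*, a lactate exporter, had 2567, 2764 and 2978 normalized reads in ESC and 10590, 9358 and 8545 in EpiSC (log2 fold change 1.78, standard error 0.11, adjusted p 4.01e-13). *Pfkp*, the platelet-type phosphofructokinase, had 7356, 7443 and 7334 in ESC and 1081, 784 and 900 in EpiSC (-3.00, 0.087, 3.54e-20), while the muscle-type *Pfkm* was higher by 0.44 below the fold minimum. *Ldha* was higher by 0.88 and the transporter *Slc2a3* lower by 0.76, both below the fold minimum.

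None of the 22 nuclear genes of the respiratory chain was DE by edgeR or by DESeq2's Wald test. At an unadjusted edgeR p under 0.05, 6 were higher and 4 lower. Of these, 6 of the first and 1 of the second passed the adjusted threshold, by less than 2-fold. Among all genes tested 23.9% passed it and were higher and 25.6% passed it and were lower. Of the 13 protein-coding genes of the mitochondrial genome, 10 passed on p and were lower, against 25.6% of all genes. Their median was -0.38. None was DE by edgeR or by DESeq2's Wald test, and the same number of 10 was lower at an unadjusted edgeR p under 0.05. *mt-Co2* had 48770, 51930 and 40730 normalized reads in ESC and 25120, 23870 and 24120 in EpiSC (log2 fold change -0.95, standard error 0.19, adjusted p 0.000147), and was the 1 gene of this list called DE without ESC replicate 3 (-1.04). Mitochondrial genes took 2.6 to 2.78% of the counts in ESC and 1.96 to 2.1% in EpiSC. *Tdh*, the threonine dehydrogenase on which mouse embryonic stem cells depend, fell by 1.03 on the log2 scale, while *Gcat*, the next enzyme of the path, rose by 1.11.

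More adhesion genes rose than fell. Of 18, 6 were DE and higher and 2 DE and lower, with a median of 0.59. *Cdh2*, N-cadherin, had 254, 273 and 209 normalized reads in ESC and 1567, 1437 and 1445 in EpiSC (log2 fold change 2.59, standard error 0.078, adjusted p 7.88e-20), and *Cdh1*, E-cadherin, 37690, 38440 and 37920 in ESC and 41420, 41350 and 40320 in EpiSC (0.11, 0.089, 0.296). The splicing regulator *Esrp1*, which keeps epithelial isoforms, rose by 1.35, as did *Cldn7* (1.23). *Vim* (1.13), *Snai1* (1.36) and *Twist1* (1.58), read as mesenchymal, rose as well, and *Zeb1* fell by 1.16 on the log2 scale. So members with epithelial and with mesenchymal roles were both among the rises.

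More basement membrane genes fell than rose. Of 16 laminins, type IV collagens and integrins, 3 were DE and lower and none DE and higher, with a median of -0.59. *Nid1*, which joins laminin to collagen, had 9672, 9884 and 9880 normalized reads in ESC and 1500, 1467 and 1513 in EpiSC (log2 fold change -2.72, standard error 0.07, adjusted p 5.26e-21). *Lama1* and *Lamc1* (-1.09) were the other two. *Fn1*, fibronectin, fell by 1.4. The integrins *Itga5* and *Itga6* were each lower by 0.90, and *Itgb5* was higher by 0.84, below the fold minimum.

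Smooth muscle actin and contractile genes rose, on a list of 20 that was also drawn up after values had been seen. Of these, 8 were DE and higher and none was DE and lower. *Acta2* (chr19:34241090-34255590), smooth muscle actin, had 282, 231 and 217 normalized reads in ESC and 4127, 4765 and 4271 in EpiSC (log2 fold change 4.19, standard error 0.11, adjusted p 6.95e-21). *Tagln* had 1271, 1627 and 1438 in ESC and 10530, 11640 and 11260 in EpiSC (2.94, 0.089, 9.75e-20), and *Cnn1* 269, 305 and 273 in ESC and 2482, 2790 and 2463 in EpiSC (3.19, 0.091, 2.57e-20). *Actc1* (4.94), *Myl9* (2.60), *Tpm1* (1.19) and *Tpm4* (1.10) rose too. Fibroblast markers moved with them: 5 of 12 were DE and higher and none lower, with *Acta2* on both lists. *Col1a1* was at 766 ± 119 in ESC and 2464 ± 115 in EpiSC (SD, n = 3), *Col1a2* rose by 2.53 and *Col3a1* by 1.97, and 10 of the 12 had a positive log2 fold change. *Dcn* was at 25.6 ± 18 in ESC and 50.5 ± 10.3 in EpiSC, *Lum* at 3.12 ± 2.71 and 4.86 ± 0.892, and neither passed on p, while *Pdgfrb* changed by -0.28. The part of fibroblasts in the rise of the contractile genes was not tested.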

How the data were processed

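The 27 libraries of the series (9 groups of 3) were sequenced in bulk from XY mouse cells. Per the labels and the methods, the authors trimmed reads with Cutadapt 1.9.1, aligned them to GRCm38 with STAR 2.5.2a and estimated expected counts, TPM and FPKM per gene with RSEM 1.3.0, without pooling replicates. Deposited effective lengths were used only for a length offset. Whether strand was used in counting is not given in the sources used here, so genes that overlap on opposite strands are uncertain. Of 48795 genes listed, 48435 were matched to GENCODE M21 for positions, classes and overlaps. Deposited TPM values were read only as levels per length and deposited FPKM values only as their alternative.

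Expected counts were rounded to whole numbers and filtered with filterByExpr, which kept 20839 genes. Counts were scaled by TMM and tested with edgeR 4.0.16 (R 4.3.3, quasi-likelihood F test) in 1 model over all 27 libraries and 9 groups. P-values were adjusted by Benjamini-Hochberg over all genes tested. The procedure was tested on simulated counts. Replicate libraries of a group differed by 5.28 to 25.2 times the counting noise (chi-square per degree of freedom), so none was a duplicate. Library measures were compared by two-sided exact permutation tests (scipy 1.17.1). DESeq2 1.42.0 was an alternative, and 18 settings beside the one reported were tried.

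The members and gene lists were chosen with earlier results of these data known, and 2 of the lists after values had been seen. Genes named were members of the lists, the 12 largest rises and falls among DE protein-coding genes whose libraries did not overlap, the 3 largest among other classes, and the 8 largest gains and losses of TPM. Floors of 3 counts and 95% intervals cover counting error only. Red blood cell markers and the other groups of the series are described no further. A check of promoter CpG content was set aside, because only 13644 of the 20839 genes had a promoter in the table. The motif shares are of the same 13644 genes and carry the same limit. Some genes are not reported here.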

Additional observations from a re-analysis of the deposited data

How the results depend on the processing

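The 781 genes higher and 901 lower in EpiSC became 725 and 945 with DESeq2's Wald test, 733 and 957 with its size factors, 723 and 949 with an offset for GC content, 788 and 898 with one for effective gene length, 794 and 895 without the low-count filter, 811 and 1052 in a fit of the 6 libraries only, 791 and 1081 with the read minimum taken over those 6, and 781 and 905 at an adjusted p under 0.05. The thresholds moved them most: without the read minimum 1689 were higher and 2137 lower (3826 in all), and without the fold minimum 3913 and 3944 (7857 in all). Leaving out 1 library at a time gave 771 to 811 higher, 862 to 911 lower and 1661 to 1691 in all.

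The replicate numbers did not pair the libraries: deviations of ESC and EpiSC libraries with the same number correlated at 0.0231, -0.0587 and -0.134. With the number as a replicate block 782 genes were higher and 905 lower, and 722 and 953 with the block and the GC offset.

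Of the genes whose values the text gives, only *Spry4*, which did not pass on p, changed direction under a setting: it was at 0.04 and ran from -0.03, without ESC replicate 2, to 0.09, without ESC replicate 3. Calls that were lost close to a threshold are given beside the gene where a library, a scaling or an offset decided them. *Cfc1*, *Rarb*, *Fgfr4*, *Gm45889* and *Serpinb1a* had too few reads once the minimum was taken over the 6 libraries or only these were fitted, and *Hnf4a* in the latter. *Gm47283* was under the fold minimum with the GC offset (0.73). The ratio of mean TPM of *Tpm1* moved by more than the spread between replicates when FPKM replaced TPM. With 3 libraries a group, differences near the fold minimum and genes of few reads are the least certain, and the depth of 35923040 counts in the shallowest ESC library limits the latter.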

Other observations

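Imprinted genes, which are expressed from 1 parental copy, moved in both directions. Of 24 tested, 2 were DE and higher in EpiSC and 5 DE and lower, with a median log2 fold change of -0.11. Among all genes tested the shares were 3.75% and 4.32%. *H19*, a noncoding RNA beside *Igf2*, had 71170, 88110 and 78980 normalized reads in ESC and 14110, 13660 and 13420 in EpiSC (log2 fold change -2.53, standard error 0.071, adjusted p 1.87e-20 by edgeR). *Igf2*, the growth factor gene next to it, fell by 1.54 on the log2 scale, *Peg10* by 2.17, *Plagl1* by 1.63 and the cell cycle inhibitor *Cdkn1c*, 30.7% of whose exon length is shared with an antisense gene, by 1.18. *Nnat* (1.77) and *Magel2* (1.20) rose. No group of 3 libraries overlapped the other in these 7 genes, as in all 1682 DE genes and 66.1% of all genes tested.

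Few genes of the cell cycle and of cell death were DE. Of 22 cell cycle genes, 1 was DE and higher and 2 were DE and lower, with a median of 0.16. The D-type cyclin *Ccnd3* had 15340, 16180 and 17130 normalized reads in ESC and 6564, 6640 and 6317 in EpiSC (log2 fold change -1.32), and its relative *Ccnd1* was higher by 0.56 below the fold minimum. *Mycl*, a relative of *Myc*, rose by 1.80. Of 17 genes of apoptosis and the p53 response, 2 were DE and higher and 1 DE and lower. Among all genes tested 3.75% were DE and higher and 4.32% DE and lower. With counts this small, neither list can be set apart from all genes. *Pmaip1*, which promotes cell death, had 1196, 1270 and 1363 in ESC and 4527, 4658 and 4844 in EpiSC (1.87). *Bcl2*, which opposes it, had 103, 126 and 110 in ESC and 444, 451 and 496 in EpiSC (2.02), and *Bmf*, another promoter of death, fell by 1.49 on the log2 scale. Genes with opposed roles were thus both among the rises.

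Several of the largest changes were in genes on none of the lists. *Hal*, which encodes the enzyme that breaks down histidine, had 1567, 1720 and 1586 normalized reads in ESC and 30.8, 28.5 and 17.2 in EpiSC (log2 fold change -5.99, standard error 0.25). *Aqp3*, a channel for water and glycerol, had 3048, 3369 and 3313 in ESC and 105, 109 and 106 in EpiSC (-4.93, 0.10). *Calcoco2*, a receptor of selective autophagy, had 5572, 6075 and 5487 in ESC and 238, 270 and 252 in EpiSC (-4.50, 0.09). The adenylate kinase gene *Ak7* (-5.17, and under the minimum of reads without ESC replicate 2 or 3), *Accsl* (-4.69) and the noncoding *1110002J07Rik* (-4.16) fell as well. *Serpinb1a*, with 13 counts in all 3 EpiSC libraries, had a ratio of ESC to EpiSC of 26.8 (95% counting interval 15.4 to 51), and was under the minimum of reads without ESC replicate 2. The protocadherin gene *Pcdh7* had 21.2, 30.3 and 15.7 in ESC and 1071, 1050 and 1044 in EpiSC (5.52, 0.13). The noncoding genes *Evx1os* (5.12), *Gm43352* (4.11) and *Gm45889* (3.00) rose, of which *Gm43352* shares 39.4% of its exon length with *Lef1*.

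In level per length, the kinase gene *Pim2* went from 120 ± 4.14 to 456 ± 9.46 TPM (SD, n = 3) and *Car4*, a carbonic anhydrase, from 84 ± 3.73 to 370 ± 1.37. *Spp1*, which encodes osteopontin, went from 375 ± 14.2 to 25.5 ± 0.378, *Mylpf*, a myosin light chain, from 402 ± 17.2 to 30.6 ± 3.95, the folate receptor *Folr1* from 410 ± 21.8 to 138 ± 7.34, and *Mybl2*, a cell cycle factor, from 320 ± 9.61 to 92.2 ± 4.03. The counts of all 6 genes were DE in the same direction. The ubiquitin ligase gene *Trip12* (460 to 199 TPM) and the ribosomal protein gene *Rpl27* (201 to 452 TPM) were also among the largest differences in TPM.

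A few of the largest values belong to genes whose reads cannot be assigned with certainty. *Exosc6* had 0 reads in the 3 ESC libraries and 846, 1091 and 1489 normalized reads in EpiSC, at least 307-fold higher against a floor of 3 counts in each ESC library, and all its exon length lies within *Aars* on the same strand. *B430305J03Rik* was at 0 in ESC and at 436, 516 and 489 in EpiSC, at least 129-fold higher, and lies opposite *Rap2b*. *AY036118* had 9016, 36510 and 5952 in ESC and 0 in EpiSC, at least 6300-fold lower, and shares all its exon length with CT010467.1 on the same strand. *Hmga1b* (253 to 1230 TPM) is a near-identical copy of *Hmga1*, and its counts were under the fold minimum with an offset for GC content (0.98). *Gm47283* (226 to 570 TPM) and *Gm21887*, with 4 counts in all 3 ESC libraries and a ratio of EpiSC to ESC of 296 (95% counting interval 115 to 1090), may share sequence with other loci. The beta-globin gene *Hbb-bs* had 337, 98.6 and 742 in ESC and 0 in EpiSC, at least 144-fold lower, so its ESC libraries differed among themselves by several times.

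By class of gene, 56 long non-coding genes (1.98%) were DE and higher and 29 (1.02%) DE and lower of 2834 tested. Of 16566 protein-coding genes, 720 (4.35%) were DE and higher and 850 (5.13%) DE and lower. Of 1301 pseudogenes, 4 (0.307%) were DE and higher and 21 (1.61%) DE and lower. Among all genes tested the shares were 3.75% and 4.32%. A DE call also required the minimum of normalized reads, so these shares depend on how many genes of a class reach it. How far this set the classes apart was not tested.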
